A study of Mus musculus with 12 samples.

Results

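The genes described here are 9 members of the MHC class I presentation route and of the interferon response, measured in the prefrontal cortex (PFC) and the whole striatum of mice offered ethanol beside water. They are H2-K1, B2m, Tap1, Tapbp, Psmb8, Stat2, Irf9, Ifitm3 and Bst2, and they were taken by symbol: every probe set (a group of short probes for a transcript) that the platform annotation gives to only 1 of these symbols. This gave 19 probe sets out of 45037 tested, for 9 of 18193 named genes. Where a gene had several probe sets, the brightest of them on average across the 12 arrays leads and stands for the gene.

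The mice were outbred Swiss males, 6 weeks old at the start and 22 weeks old at the end, and all groups had water, 5% ethanol and 10% ethanol to choose from. They went through 10 weeks of acquisition, 2 weeks of withdrawal, 2 weeks of reinstatement and 2 weeks with quinine, a bitter substance, at 0.005 g/L in the ethanol, and then chose freely for 1 more week. The 4 steps already fill the 16 weeks between the ages given, and the labels do not place the further week. Inflexible drinkers preferred ethanol throughout, with quinine too, and had a mean blood ethanol of 113 ± 11.3 mg/dL per the labels. Light drinkers preferred water and had 48 ± 13.3 mg/dL. The labels do not say what kind of error these are. The 4 groups, with 3 arrays each, were inflexible PFC, light PFC, inflexible striatum and light striatum, so the mice set against the inflexible drinkers had also had access to ethanol. Heavy drinkers and mice on water alone were not analysed here. The labels give a single RNA pool concentration per group. The arrays of a group may be repeat hybridisations of 1 pool, and all p-values cover the spread between arrays, which may be technical, not the spread between mice.

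MHC class I molecules carry short peptides from inside a cell to its surface, where T cells and natural killer cells read them. The heavy chain, such as that encoded by H2-K1, needs beta-2 microglobulin for its fold, peptides cut by the proteasome, a transporter that brings them into the endoplasmic reticulum and tapasin, which holds the transporter and the empty heavy chain together. Interferons raise most of these genes through STAT and IRF factors. In healthy brain they are expressed most by endothelial cells and microglia and at low levels by neurons, where class I proteins are also known for a part in synapse remodelling.

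Values are the deposited log2 levels, as mean ± SD with n = 3 arrays, and differences are ± SE. All arrays had medians of 3.12 to 3.14 over all probe sets. Hybridisation controls, RNAs spiked into each sample, gave a high signal on 5 arrays and a low signal on the other 7. The labels give no origin for this split, and it crosses the groups, with 1 of 3 arrays high in inflexible PFC, light PFC and light striatum and 2 of 3 in inflexible striatum. The tissue labels were checked against markers: summed over 10 striatal projection neuron genes on a linear scale, the level ran from 1810 to 1920 in inflexible striatum, 1300 to 1410 in light striatum, 599 to 607 in inflexible PFC and 250 to 281 in light PFC. The inflexible PFC arrays therefore held more striatal neuron transcript than the light PFC arrays, and the same held for myelin genes and for Ttr of the choroid plexus (given with the marker lists).

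Of the 9 genes, 4 (H2-K1, B2m, Tapbp and Ifitm3) had a leading probe set with a mean above a log2 level of 4. The share among all genes was 36.24%, so the set is not shown to be dimmer than genes at large. The leading sets of Tap1, Psmb8, Stat2, Irf9 and Bst2 lay between 2.99 and 3.51 on all 12 arrays, close to the array medians. Levels that low may be compressed by the summary method, so a difference in these 5 genes could be understated. No detection call was used here, so a low level is not told apart from no signal.

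The leading probe set of H2-K1, a class I heavy chain gene, was lower in PFC of inflexible than of light drinkers. Its other sets were not called, and its call was lost in some alternative fits, as given below. The leading set of B2m, the light chain gene, had non-overlapping levels in the same direction. H2-K1 stood at 4.26 ± 0.13 in inflexible PFC and 4.84 ± 0.17 in light PFC, a difference of -0.58 ± 0.09 or 0.669-fold, with an adjusted p of 0.0239. It was the only 1 of the 9 genes to pass the test (limma, adjusted p under 0.05 by the Benjamini-Hochberg method over all probe sets). Of all genes 1.04% passed in either direction and 0.462% were called lower in inflexible drinkers, and of all probe sets 0.826% passed. An unadjusted p under 0.05 was found for 3 of the 9, H2-K1, B2m and Tapbp, and for 9.17% of all genes. Tapbp, like B2m, had no overlap between the classes without passing, and no gene of the set was called higher. In bulk tissue, fewer cells of a type and less RNA per cell cannot be told apart. The medians of the 9 differences and of all genes were -0.08 and 0.00.

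**Figure D1:**
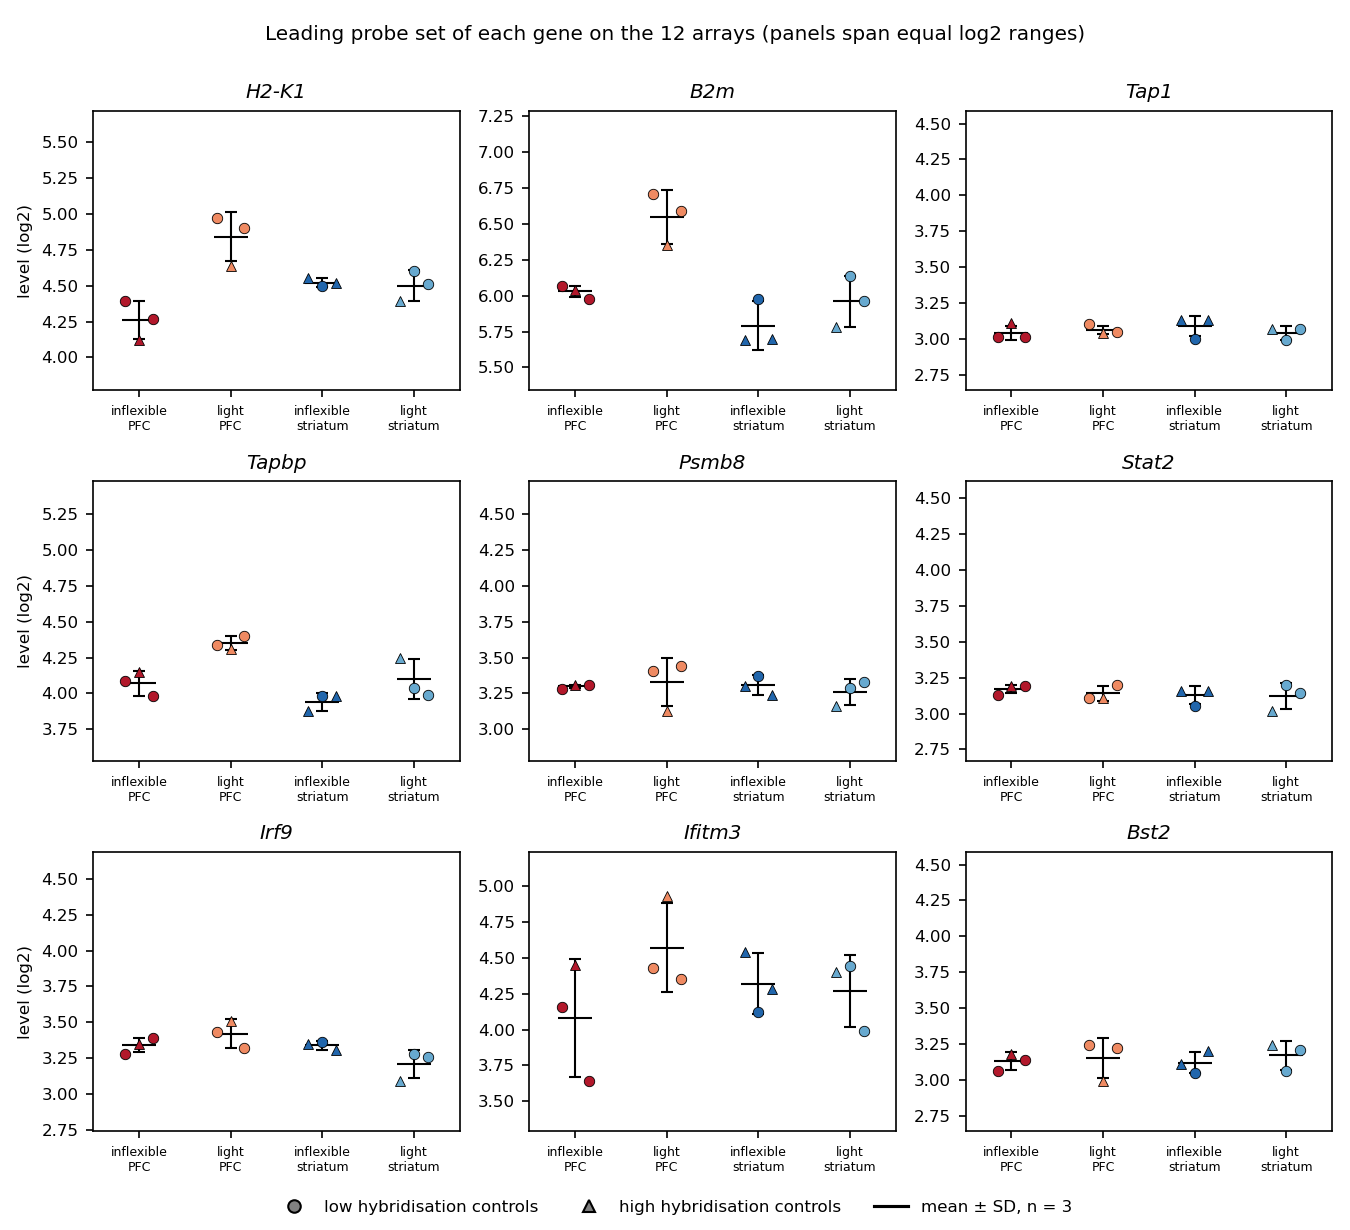
Log2 level of the leading probe set of each of the 9 genes (y axes, all spanning the same range) on the 12 arrays (points, x axis by group), with bars for the mean and SD of 3 arrays and triangles for arrays with high hybridisation controls. H2-K1, B2m and Tapbp lie lower on every inflexible PFC array than on any light PFC array, and Tap1, Psmb8, Stat2, Irf9 and Bst2 stay between 2.99 and 3.51.

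H2-K1 encodes the classical class I heavy chain H-2K and lies on chromosome 17, with its partners Tapbp, Tap1 and Psmb8 in the same MHC region. Its leading probe set read 4.39, 4.12 and 4.27 on the inflexible PFC arrays, against 4.97, 4.64 and 4.90 on the light PFC arrays. The highest inflexible array was below the lowest light array, and in each class the array with high hybridisation controls was the lowest. In inflexible striatum it read 4.55, 4.50 and 4.52, against 4.39, 4.60 and 4.51 in light striatum, and these groups overlapped.

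The call on H2-K1 in PFC had a 95% interval of -0.79 to -0.37 and an unadjusted p of 0.000114. The difference was -0.61 ± 0.05 within the low-control arrays (2 in each class, adjusted p = 0.0121). The single high-control array of each class differed by -0.52, a value with no spread of its own, whose test (adjusted p = 0.033) assumes that these arrays vary like those of the other groups. It was not called without inflexible PFC replicate 2 (adjusted p = 0.0821) or 3 (0.0978), without light PFC replicate 1 (0.103) or 3 (0.113), or in a fit of the PFC arrays alone (0.152). With the replicate number as a block the adjusted p was 0.0591 over all 12 arrays and 0.018 over the PFC arrays alone.

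H2-K1 had 4 probe sets, and all 4 carry the suffix that marks sets with probes able to match related sequences. The second set had 3.57 ± 0.26 in inflexible PFC and 4.42 ± 0.40 in light PFC, a larger difference of -0.85 ± 0.19 that did not pass (adjusted p = 0.0985). Its arrays read 3.79, 3.29 and 3.63 in inflexible PFC, against 4.57, 3.97 and 4.73 in light PFC, without overlap. The third set, at 3.36 ± 0.07 in inflexible PFC and 3.49 ± 0.03 in light PFC, also did not overlap (difference -0.13 ± 0.05, adjusted p = 0.627). The last set, at 2.97 ± 0.02 in both, overlapped. A further 2 probe sets that the annotation shares between H2-K1 and another class I gene were not counted. Signal from H2-K1 and from close relatives cannot be fully told apart on these arrays.

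**Figure D2:**
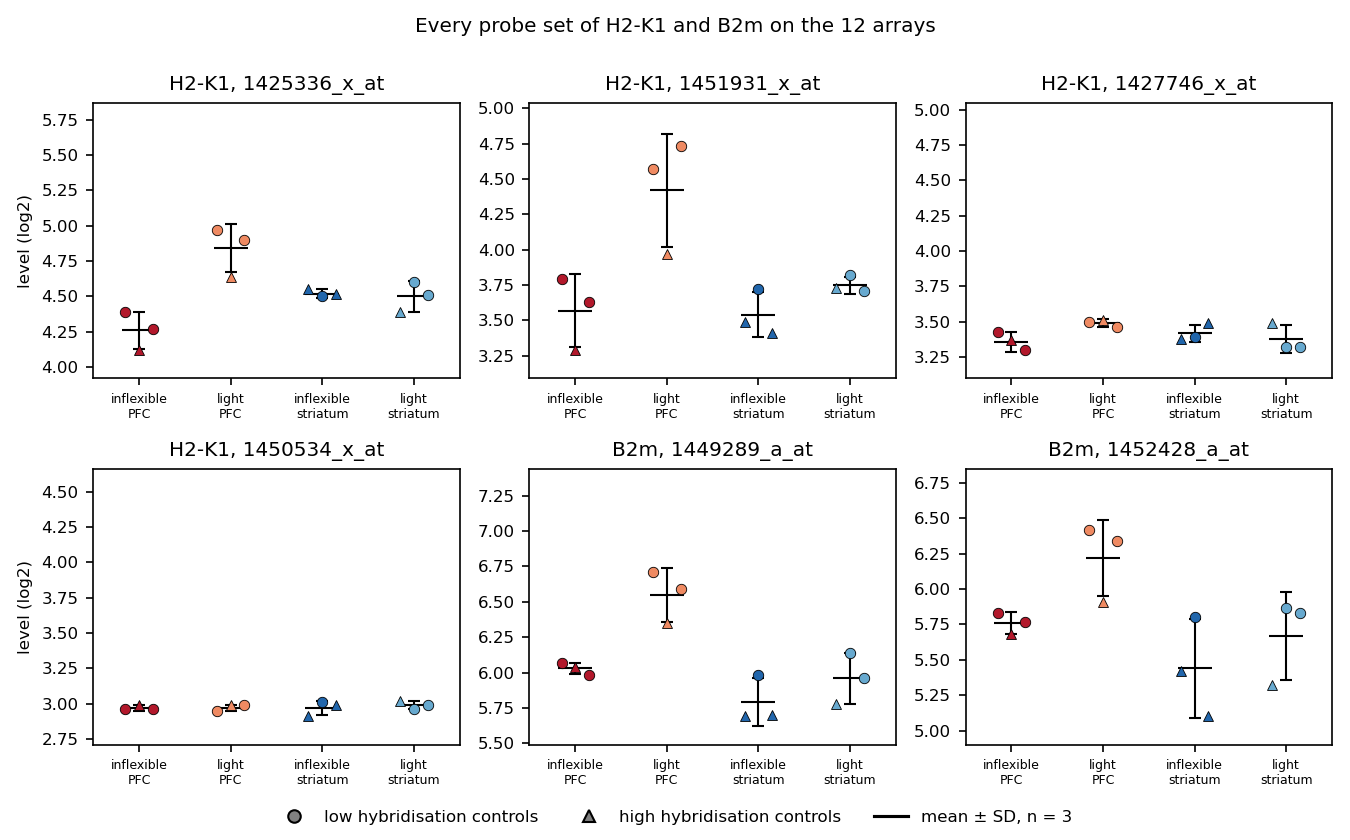
Log2 levels (y axes, equal spans) of the 4 probe sets of H2-K1 and the 2 of B2m on the 12 arrays, by group (x axis), with mean and SD bars of 3 arrays. The leading and second H2-K1 sets and both B2m sets lie lower on all inflexible PFC arrays than on all light PFC arrays, and the dimmest H2-K1 set overlaps.

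B2m encodes beta-2 microglobulin, the light chain shared by class I molecules. Its leading set read 6.07, 6.04 and 5.98 in inflexible PFC (6.03 ± 0.04), against 6.71, 6.35 and 6.59 in light PFC (6.55 ± 0.19). The classes did not overlap, and the difference of -0.52 ± 0.12 (95% interval -0.78 to -0.26) had an unadjusted p of 0.00139 and an adjusted p of 0.104. B2m was lower on the high-control arrays in 3 of the 4 groups, by 0.30 in light PFC, and its PFC difference passed with the control split as a block (adjusted p = 0.0098). It was -0.63 ± 0.07 within the low-control arrays (adjusted p = 0.0244), and the single high-control arrays of the classes differed by -0.30, on the same assumption about their spread (adjusted p = 0.154). The other B2m set had 5.83, 5.68 and 5.77 in inflexible PFC, against 6.42, 5.91 and 6.34 in light PFC, a difference of -0.46 ± 0.20 (adjusted p = 0.645). The pair of B2m sets had a Pearson r of 0.94 over the 12 arrays, and the first 2 H2-K1 sets 0.86, as a description. The leading H2-K1 set had an r of 0.476 with the third set and -0.21 with the last. In the other genes with several sets, r with the leading set ran from -0.566 (Psmb8) to 0.269 (Tapbp).

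Of the peptide supply genes, only tapasin was measured above a level of 4. Tapbp, which encodes tapasin, read 4.09, 4.15 and 3.98 in inflexible PFC (4.07 ± 0.09), against 4.34, 4.31 and 4.40 in light PFC (4.35 ± 0.05). On this leading set all inflexible arrays were below all light arrays. The difference of -0.28 ± 0.07 did not pass (unadjusted p = 0.00293, adjusted p = 0.164). The other Tapbp set had 3.08 ± 0.03 in inflexible PFC and 3.13 ± 0.03 in light PFC. It differed by only -0.05 ± 0.05 (adjusted p = 0.986), without overlap before rounding. Tap1, a subunit of the peptide transporter, had 3.04 ± 0.05 in inflexible PFC and 3.06 ± 0.03 in light PFC, and its 95% interval ran from -0.12 to 0.08. Psmb8, an inducible proteasome subunit, had 3.30 ± 0.01 in inflexible PFC and 3.33 ± 0.17 in light PFC. With H2-K1, B2m and Tapbp, 3 of the 9 genes were lower without overlap in inflexible PFC and 0 were higher, where 6.62% of all genes were lower and 7.46% higher in this way. Among genes above a level of 4, 8.54% were lower without overlap.

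The signalling and effector genes did not pass in PFC. Ifitm3, an interferon-induced membrane protein that restricts virus entry, read 4.16, 4.45 and 3.64 in inflexible PFC (4.08 ± 0.41), against 4.43, 4.93 and 4.35 in light PFC (4.57 ± 0.31). The groups overlapped, the difference was -0.49 ± 0.23 (adjusted p = 0.701), and in all 4 groups its mean was higher on the high-control arrays. It was -0.26 without inflexible PFC replicate 3 and -0.31 without light PFC replicate 2. Stat2 and Irf9, which act in the transcription response to type I interferon, differed by 0.03 ± 0.05 and -0.08 ± 0.06. Bst2, also called tetherin, which holds virus particles on the cell surface, differed by -0.03 ± 0.08. Adjusted p-values of the 5 dim genes lay between 0.956 and 1.00.

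Start regions of H2-K1, B2m and Ifitm3 are shown because these are the heavy chain, the light chain and the best-measured interferon effector, and because the motif letters in their windows differ. Each window holds 250 bases before and 50 after a start from RefSeq (GRCm38.p6), 5′ to 3′ on the gene's strand, and capitals mark matches, searched on both strands, to either of 2 motifs. The interferon-stimulated response element (ISRE) core was taken as GAAA, any 2 bases and GAAA again, and the kappa B element as the run in capitals in the H2-K1 line. The H2-K1 window is chr17:34000298-34000597 on the minus strand, that of B2m chr2:122147437-122147736 on the plus strand and that of Ifitm3 chr7:141010695-141010994 on the minus strand.
H2-K1: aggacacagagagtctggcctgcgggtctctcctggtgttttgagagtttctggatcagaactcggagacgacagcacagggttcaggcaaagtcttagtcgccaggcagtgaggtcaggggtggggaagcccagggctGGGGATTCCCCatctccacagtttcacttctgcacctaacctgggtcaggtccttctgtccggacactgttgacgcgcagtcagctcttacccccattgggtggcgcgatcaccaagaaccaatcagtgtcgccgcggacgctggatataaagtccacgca
B2m: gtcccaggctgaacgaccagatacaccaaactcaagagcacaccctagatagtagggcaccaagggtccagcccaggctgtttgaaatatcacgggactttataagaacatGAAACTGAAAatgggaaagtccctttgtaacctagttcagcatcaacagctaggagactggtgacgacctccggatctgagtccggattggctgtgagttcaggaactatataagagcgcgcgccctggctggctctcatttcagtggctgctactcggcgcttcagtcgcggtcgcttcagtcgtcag
Ifitm3: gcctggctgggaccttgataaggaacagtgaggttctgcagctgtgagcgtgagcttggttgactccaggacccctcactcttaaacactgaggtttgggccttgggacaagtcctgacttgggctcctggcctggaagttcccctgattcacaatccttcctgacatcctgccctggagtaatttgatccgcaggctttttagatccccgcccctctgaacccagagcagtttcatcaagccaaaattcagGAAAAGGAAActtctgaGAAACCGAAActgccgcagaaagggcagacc

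Counted from 1 at the 5′ end, the kappa B letters of H2-K1 fill bases 140 to 150. No ISRE core in the strict form used here is in that window. Looser forms of the element were not searched, so the H2-K1 window is not shown to lack one. B2m holds 1 ISRE core at bases 112 to 121, and Ifitm3 holds 2, at bases 253 to 262 and 270 to 279, which do not overlap and lie after the start. All 9 genes matched the RefSeq table, with 11 windows in all because H2-K1 and Irf9 have 2 starts each. The ISRE core is in windows of 4 of the 9 genes (B2m, Ifitm3, Bst2, Stat2), where 3.44% of all 32851 windows hold it, and in Bst2 a pair of matches overlap. The kappa B letters are those known from the H2-K1 promoter, so their match there was fixed by the choice of letters and is no finding. None of the other 8 genes holds them, and 0.0304% of all windows do. These matches describe letters and are not evidence of binding.

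In striatum none of the 9 genes passed between inflexible and light drinkers by limma, while 0.022% of all genes and 0.0111% of all probe sets did. An unadjusted p under 0.05 was found for 0 of the 9 and for 3.69% of all genes. The leading set of H2-K1 had 4.52 ± 0.03 in inflexible striatum and 4.50 ± 0.11 in light striatum. The difference was 0.02 ± 0.09 with a 95% interval of -0.18 to 0.23. The second H2-K1 set differed by -0.21 ± 0.19 (95% interval -0.63 to 0.21), the third by 0.04 ± 0.05 and the last by -0.02 ± 0.03. B2m read 5.69, 5.98 and 5.70 in inflexible striatum (5.79 ± 0.17), against 5.78, 6.14 and 5.96 in light striatum (5.96 ± 0.18), which overlapped (-0.17 ± 0.12). Tapbp read 3.88, 3.98 and 3.98 in inflexible striatum, against 4.25, 4.04 and 3.99 in light striatum. The other Tapbp set overlapped in striatum (0.05 ± 0.05). On the leading set the classes did not overlap before rounding to 2 decimals (-0.15 ± 0.07, adjusted p = 1.00). Irf9 did not overlap the other way, with 3.35, 3.36 and 3.31 in inflexible striatum, against 3.09, 3.28 and 3.26 in light striatum (0.13 ± 0.06, adjusted p = 1.00). Of all genes, 2.97% were lower and 4.56% higher without overlap, so 1 of 9 in each direction describes these 2 genes only. Ifitm3 had 4.32 ± 0.21 in inflexible striatum and 4.27 ± 0.25 in light striatum.

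**Figure D3:**
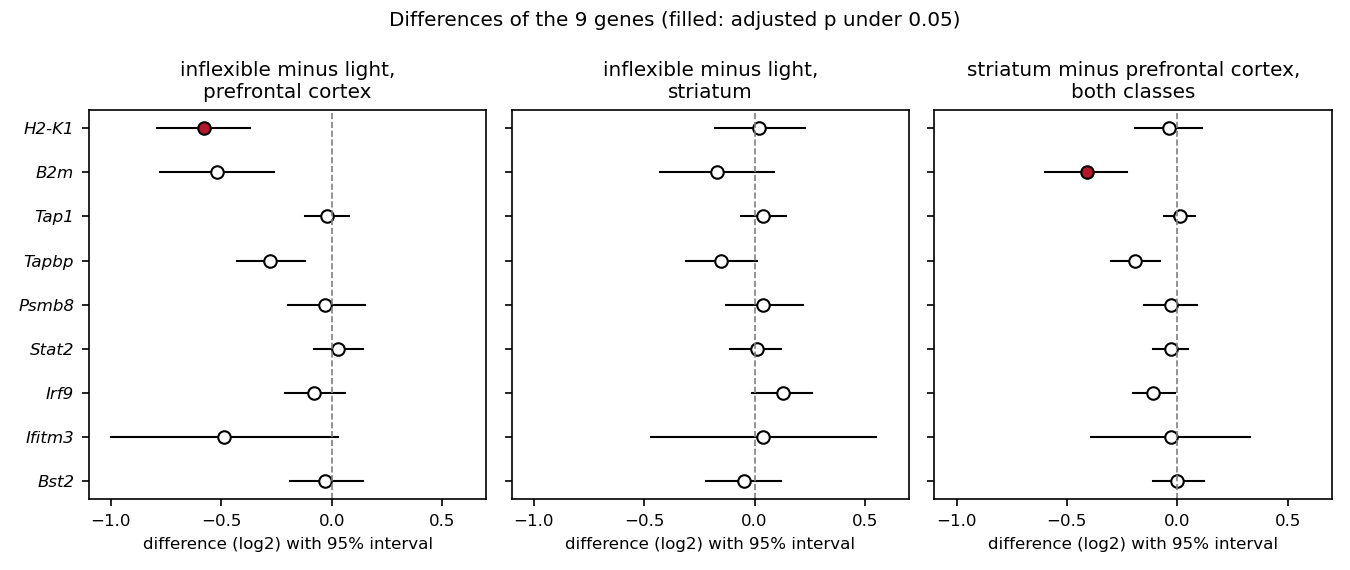
Differences on the log2 scale (x axes) with 95% intervals for the 9 genes (rows) in PFC, in striatum and between regions. The filled points, H2-K1 in PFC at -0.58 and B2m between regions at -0.41, passed at an adjusted p under 0.05.

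Whether the class difference itself differed between regions was tested as an interaction, in which none of the 9 passed, against 0.44% of all genes and 0.313% of all probe sets. The striatal minus the prefrontal class difference was 0.60 ± 0.13 for H2-K1 (95% interval 0.31 to 0.90, unadjusted p = 0.00109, adjusted p = 0.148). A regional difference in its class effect thus did not pass after adjustment. The class difference of its leading set had a 95% interval of -0.18 to 0.23 in striatum and -0.79 to -0.37 in PFC. For its second set these were -0.63 to 0.21 and -1.28 to -0.43. The interaction value of H2-K1 passed with the control split as a block (0.66, adjusted p = 0.0159), with quantile normalisation (0.61, 0.0224) and without light PFC replicate 2 (0.70, 0.0444). Between the high-control arrays it was 0.67 (adjusted p = 0.0498), where 3 of the 4 groups have 1 array and the spread is borrowed. For B2m it was 0.35 ± 0.17 and for Ifitm3 0.53 ± 0.32. Of the 9 genes, H2-K1 and Irf9 (0.21 ± 0.09) had an unadjusted p under 0.05 here, as did 7.09% of all genes.

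Between regions, averaged over the drinking classes, B2m was lower in striatum than in PFC. The difference was -0.41 ± 0.08 (0.751-fold, adjusted p = 0.0217), with 5.79 ± 0.17 and 6.03 ± 0.04 in inflexible striatum and inflexible PFC, and 5.96 ± 0.18 and 6.55 ± 0.19 in light striatum and light PFC. It was the only 1 of the 9 to pass, where 5.38% of all genes passed, 2.96% as lower in striatum, and 3.82% of all probe sets. The B2m difference was -0.32 within the low-control arrays (adjusted p = 0.0363) and -0.46 within the high-control arrays (0.0143). Without 1 of 6 arrays it was not called: inflexible PFC replicate 1 (adjusted p = 0.059), light PFC replicate 1 (0.0558) or 3 (0.0613), inflexible striatum replicate 1 (0.0586) or 3 (0.0592), or light striatum replicate 3 (0.0518). With the replicate number as a block over all 12 arrays it was 0.0593.

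For H2-K1 the region comparison depended on the probe set. Its second set differed in the direction of B2m, by -0.35 ± 0.13, without passing (unadjusted p = 0.0269, adjusted p = 0.283). The third and last sets differed by -0.03 ± 0.04 and 0.01 ± 0.02. The leading set of H2-K1 did not follow B2m. It averaged 4.52 in inflexible striatum and 4.26 in inflexible PFC, but 4.50 in light striatum and 4.84 in light PFC. Its mean difference was -0.04 ± 0.07 (adjusted p = 0.928). The order of its 4 groups was thus inflexible PFC, light striatum, inflexible striatum and light PFC, and the 2 striatal groups did not differ beyond their spread. B2m ran in the order inflexible striatum, light striatum, inflexible PFC and light PFC, and neighbours among the first 3 overlapped or met at the same rounded value. Tapbp had the region difference closest to passing after B2m, -0.19 ± 0.05 (adjusted p = 0.0738).

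The wider pathway was followed in 4 lists with 99 measured genes beside the 9, and it gave 1 call between the drinking classes in PFC, close to the 1.04% of all genes. In class I presentation 0 of 16 passed, with a median difference of -0.04. H2-D1, another classical heavy chain, measured with a set that may also match relatives, read 3.86, 3.73 and 3.85 in inflexible PFC, against 4.92, 4.17 and 4.71 in light PFC, without overlap (-0.79 ± 0.17, adjusted p = 0.0884). Calr, the chaperone calreticulin of the peptide loading complex, had 7.17 ± 0.11 in inflexible PFC and 7.61 ± 0.19 in light PFC (-0.44 ± 0.14, adjusted p = 0.317). In class II presentation, the peptide route of professional antigen-presenting cells, H2-Ab1, a class II beta chain, fell: it had 3.02 ± 0.03 in inflexible PFC and 3.21 ± 0.06 in light PFC (-0.20 ± 0.04, adjusted p = 0.0407), 1 of 6 measured, all of them dim. H2-Ab1 was not called in 10 of the 12 fits that each left out 1 array, and it was called in 4 of 22 alternatives in all.

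Interferon signalling genes had 0 of 25 called and a median of 0.00 in PFC, and interferon-stimulated effectors 0 of 52 and a median of -0.03. Without overlap, 11 of the 52 effectors were lower and 2 higher, and 4 of the 25 signalling genes were lower and 0 higher, beside the 6.62% and 7.46% of all genes. An unadjusted p under 0.05 was found for 7 effectors and 2 signalling genes, where 9.17% of all genes had one. Only 3 effectors and 4 signalling genes were above a level of 4. In striatum 0 of the 99 passed, with list medians from -0.02 to 0.02. Between regions 2 of the 99 passed, both dim and lower in striatum, where 5.38% of all genes passed. Socs3, a feedback inhibitor of cytokine signalling, differed by -0.17 ± 0.04 (adjusted p = 0.0324), with 3.06 ± 0.06 in inflexible striatum, 3.03 ± 0.12 in light striatum, 3.18 ± 0.00 in inflexible PFC and 3.26 ± 0.01 in light PFC. Iigp1, an interferon-induced GTPase, differed by -0.14 ± 0.03 (adjusted p = 0.0489), with the light PFC arrays at 3.21, 3.40 and 3.26. Of the 12 fits that each left out 1 array, Socs3 was called in 4 and Iigp1 in 2.

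**Figure D4:**
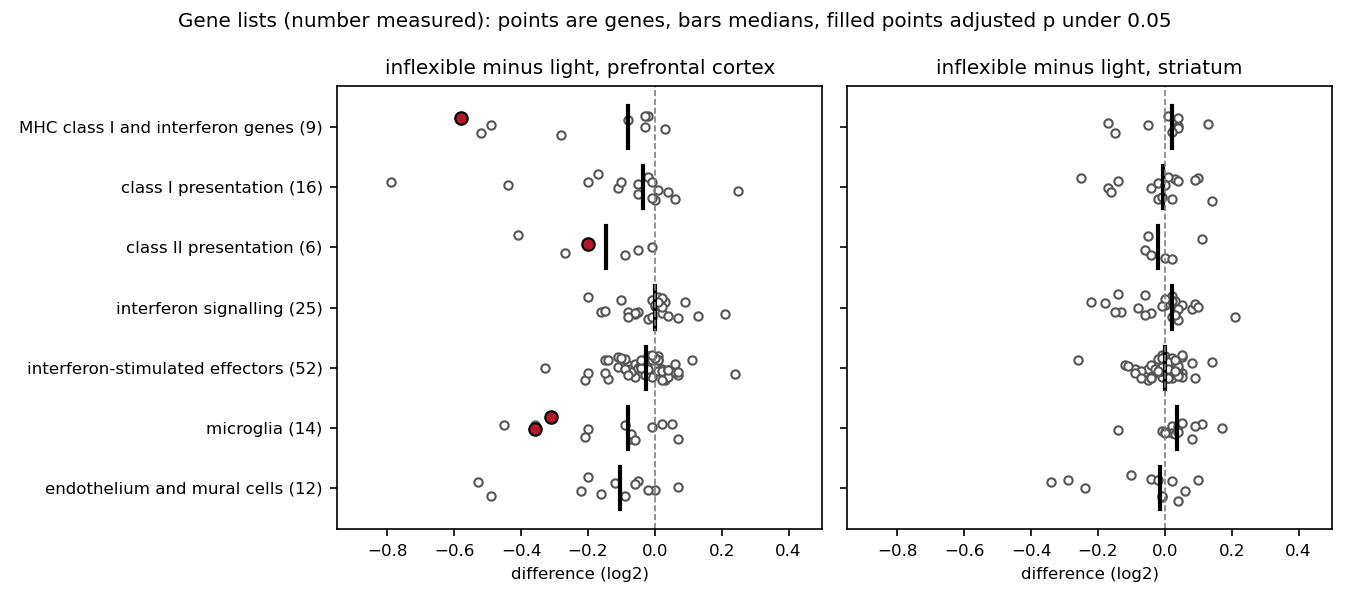
Log2 differences of inflexible minus light drinkers (x axes) for each measured gene (points) of the 9 genes, the 4 pathway lists and 2 marker lists (rows, number measured in brackets), in PFC and striatum, with bars for list medians and filled points for adjusted p under 0.05. H2-K1, H2-Ab1 and the microglial genes Olfml3 and Ctss are the filled points in PFC, and striatum has none.

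Marker lists of the cell types known to express these genes, and of blood and meninges, had medians below 0 in PFC. The lists of cortical excitatory neurons and of astrocytes, given further below, also had medians below 0 there. Of all genes 1.04% passed there, the share to set beside each PFC count of called markers. A single call in a short list describes that gene only. Of 14 microglial genes 2 fell, Olfml3 (-0.31 ± 0.05, adjusted p = 0.0279) and the protease gene Ctss (-0.36 ± 0.07, adjusted p = 0.0458), and the summed level of the list ran from 353 to 397 on inflexible PFC arrays and from 417 to 454 on light PFC arrays. In striatum the microglial sums overlapped, at 365 to 399 in inflexible and 353 to 399 in light drinkers. Endothelial and mural genes had 0 of 12 called and a median of -0.11, with sums from 232 to 258 in inflexible PFC and from 254 to 296 in light PFC, which overlapped. Meningeal and perivascular fibroblast genes had 1 of 9 called, Fmod, which was lower, with sums of 145 to 160 in inflexible PFC and 174 to 190 in light PFC. The same list had a median of -0.18 in both regions, and its sums in striatum were 134 to 140 in inflexible and 153 to 159 in light drinkers, with 0 of 9 called. Blood and lymphocyte genes had 1 of 9 called, Jchain, which was lower, with sums of 75.3 to 77.1 in inflexible PFC and 87.1 to 90.0 in light PFC. In striatum the blood sums were 74.7 to 75.3 in inflexible and 76.0 to 78.1 in light drinkers. These sums are of linear values, led by the brightest genes of each list, and no probe set reads 0 after this summary.

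Markers of myelin, striatal neurons and choroid plexus moved the other way in the same arrays, again beside 1.04% of all genes called. Myelin genes had 6 of 11 called, all higher, with sums of 1530 to 2120 in inflexible PFC and 647 to 985 in light PFC. Striatal projection neuron genes had 6 of 10 called, all higher, and of 8 choroid plexus and ependyma genes Ttr was called higher, with sums of 1310 to 2170 in inflexible PFC and 77.4 to 81.3 in light PFC. Cortical excitatory neuron genes had 1 of 9 called, Neurod6, which was higher, and a median of -0.31. Astrocyte genes had 0 of 10 called and a median of -0.04. The part of all these markers in the results for H2-K1, B2m and Tapbp was not tested.

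Across the 12 arrays, B2m ran with Tapbp (Pearson r = 0.78) and H2-K1 (0.692), H2-K1 with Tapbp at 0.511, and Ifitm3 with these 3 genes at 0.248 to 0.458. Among 6592 other genes above a level of 4, the most alike in pattern were Gon4l (0.949) and Slc25a44 (0.945) for H2-K1, Kcnq1ot1 (0.961) and Cdk2ap1 (0.955) for B2m, Ypel4 (0.908) and Slc25a18 (0.895) for Tapbp, and Igfbp5 (0.94) and Unc13a (0.921) for Ifitm3. These are descriptions over 12 arrays that share 4 groups and the split in the controls. No member was the nearest gene of another.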

How the data were processed

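The authors deposited 1 table of probe set values for 12 one-colour arrays, used here as log2 values. Per the submitters' processing notes, RMA and affy were used, and no version is given. Base 2 of the logarithm was taken from the range of the values, so folds rest on it. Of 45101 probe sets, 64 control sets were left out, and 34945 of the rest have 1 gene symbol, 932 several and 9160 none. Symbols of 34741 matched RefSeq and 0 changed. The 12 arrays entered a limma 3.58.1 model with a mean for each of the 4 groups (lmFit, eBayes, 8 residual degrees of freedom, R 4.3.3), two-sided, with Benjamini-Hochberg adjustment over 45037 probe sets and calls at an adjusted p under 0.05. The fit was tested on simulated data. Python 3.11.15, pandas 2.3.3 and numpy 2.4.6 made the tables. Precision is limited by the number of arrays.

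All 9 genes were named. From the pathway lists, called genes were named, or the 2 with the smallest p where a list had no call, and the 2 most alike genes for each member above a level of 4. The members, lists and rules were chosen with earlier results of these data known. The replicate numbers come from the sample titles. Same-numbered PFC arrays deviated together (r of 0.741, 0.849 and 0.622 between classes), but so did the differently numbered PFC arrays with low controls (0.796 and 0.622), so number and control split are not separated there. The striatal numbers gave 0.25, 0.262 and -0.637. The replicate block was also fitted on the arrays of each region alone, a setting chosen after seeing the data. The other alternatives were leaving out each array, the control split, quantile normalisation, a filter at a level of 4, the region's arrays alone, averaging all sets of a gene and a trended variance.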

Additional observations from a re-analysis of the deposited data

How the results depend on the processing

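No value of the 9 genes reversed a call, and in striatum 0 of the 9 and 0 of the 99 pathway genes passed under any of the 22 alternatives. In PFC the count of the 9 genes called (main 1) was 0 with the replicate block over 12 arrays and with the region's arrays alone, and 2 with the control split as a block, within the low-control arrays and with quantile normalisation, where B2m joined H2-K1. Without single arrays it ran from 0 to 1. The H2-K1 difference stayed below 0 under all 22 alternatives, from -0.68 to -0.39, and was called in 16. The PFC count of the 99 pathway genes (main 1) was 0 with the replicate block, the region's arrays alone and the filter on low values, 2 with all sets of a gene averaged, 3 with a trended variance, 6 with the control split as a block (0 higher, 6 lower), 6 between the single high-control arrays (2 higher, 4 lower), and 0 to 1 without single arrays. For the interaction (main 0 and 0), 1 of the 9 was called with the control split, between the high-control arrays and with quantile normalisation, 0 to 1 without single arrays, and 2 of the 99 between the high-control arrays. For the region comparison the 9 (main 1) gave 0 with the replicate block, 2 with the control split (Tapbp joined B2m) and within the high-control arrays (Irf9 joined B2m), and 0 to 2 without single arrays. The 99 (main 2) gave 1 with the replicate block and within the low-control arrays, 0 with the filter, 6 with the control split, 15 within the high-control arrays, and 0 to 2 without single arrays. The cause of these changes was not tested, except that the filter left only 4 of the 9 and 12 of the 99 to test. Calls over all probe sets ranged from 157 to 1831 in PFC (main 372), 0 to 34 in striatum (5), 51 to 649 for the interaction (141) and 1203 to 5563 between regions (1720). The replicate block on the PFC arrays alone left both PFC counts at 1, but the pathway gene called was Calr and not H2-Ab1, and within the low-control arrays and with quantile normalisation it was H2-D1. Low levels limit what 5 of the 9 genes can show.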
